A study of Mus musculus with 12 samples.

Results

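The mitochondrially encoded genes are the 37 genes of the mouse mitochondrial chromosome, out of 55573 genes in the count files. They were chosen by position. Every gene that GENCODE mouse release 21 places on that chromosome (symbols that begin with mt-) was taken, which gave 13 mRNAs, 2 rRNAs and 22 tRNAs. The study sequenced poly(A) RNA of single fully grown oocytes at the germinal vesicle (GV) stage, before meiosis resumes, over several numbers of amplification cycles and amounts of starting RNA. There were 6 whole oocytes, amplified for 10, 14 or 18 cycles, with 2 libraries for each cycle number. Lysates of 2 more oocytes were diluted to 1/2, 1/4 and 1/8 of an oocyte and amplified for 18 cycles, again with 2 libraries for each fraction. The oocytes came from 1 B6D2_F1_ female aged 12 weeks and were collected in M2 medium with milrinone, a phosphodiesterase inhibitor that keeps oocytes arrested. No genotype or treatment differed between groups, and the same amount of ERCC spike-in mix, a set of synthetic RNAs, was added to each library. All p-values therefore measure the spread between oocytes of 1 animal or, among the fractions, between dilutions of 2 oocytes. A library held between 1702062 and 13806199 counts on genes. Of these, 166032 over the 12 libraries fell on mitochondrial genes.

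Mitochondrial DNA is transcribed on both strands into long precursors, and many of the mRNAs and rRNAs are released by cutting out the tRNAs that lie between them. The mRNAs encode core subunits of the respiratory complexes I, III and IV and of ATP synthase, which are completed by subunits from nuclear genes, and the rRNAs form the core of the mitochondrial ribosome. Most mitochondrial mRNAs carry short poly(A) tails, and a growing oocyte accumulates more mitochondria and more mitochondrial DNA than most other cells do.

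The labelled cell type was checked with 10 oocyte genes, among them those of the zona pellucida proteins (Zp1, Zp2, Zp3) and of the growth factors Gdf9 and Bmp15. All 10 had counts in each of the 12 libraries. Their summed level was 24090 and 21537 CPM (counts scaled to the same total of counts on genes in each library) in whole oocytes at 10 cycles, 23547 and 25106 CPM at 14 cycles, 7130 and 5983 CPM at 18 cycles, 9309 and 8778 CPM in the 1/2 fraction, 12976 and 14076 CPM in the 1/4 fraction, and 19884 and 19416 CPM in the 1/8 fraction. Gdf9 was the most abundant of them in 10 libraries and Ooep in 1 library of the 1/2 and 1 of the 1/8 fraction. The sum was lowest in the whole oocytes at 18 cycles.

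The mitochondrial genes took 0.329% and 0.197% of the counts on genes in whole oocytes at 10 cycles, 0.284% and 0.301% after 14 cycles, but 0.0407% and 0.0665% after 18 cycles. In the fractions, all amplified for 18 cycles, they took 0.0358% and 0.0667% in 1/2, 0.0869% and 0.104% in 1/4, and 0.131% and 0.195% in 1/8. Thus it was high in the 4 whole oocytes at 10 and 14 cycles, low in the whole oocytes at 18 cycles and in the 1/2 fraction, and intermediate in 1/4 and 1/8. The whole oocytes at 18 cycles did not overlap with those at fewer cycles. The Wilson interval at 95% ran from 0.326% to 0.332% in the library with the highest share and from 0.0340% to 0.0377% in the 1 with the lowest. Such intervals cover counting error only and not the spread between oocytes. On the log2 scale the share of counts fell by 2.39 from 10 and 14 cycles to 18 cycles, a 5.25-fold fall (exact two-sided permutation test, p = 0.133, n = 2 against 4, the smallest p of this design). Against whole oocytes at 18 cycles, the log2 difference of the share was -0.09 in 1/2, with overlapping libraries (exact permutation p = 1, n = 2 against 2), 0.87 in 1/4 and 1.62 in 1/8, both without overlap (exact permutation p = 0.333 each, the smallest p that 2 against 2 allows). Set against the 4 whole oocytes at 10 and 14 cycles instead, a comparison chosen after seeing the data, the log2 difference of the share was -2.48 in 1/2, -1.52 in 1/4 and -0.77 in 1/8, so that the sign in 1/4 and 1/8 turns with the reference. The 3 comparisons of fractions share their reference libraries. Between neighbouring fractions the share was 0.96 higher (log2) in 1/4 than in 1/2 and 0.75 higher in 1/8 than in 1/4, each without overlap (exact permutation p = 0.333, n = 2 against 2).

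Markers of the granulosa and cumulus cells that surround an oocyte were lower at 18 cycles in sum, but not each of them. Of 10 such genes, those with a count numbered 9 and 7 after 10 cycles, 10 and 10 after 14 cycles, 9 and 6 after 18 cycles, 6 and 5 in 1/2, 8 and 7 in 1/4, and 7 and 6 in 1/8. Their summed level was 141 and 85.6 CPM at 10 cycles, 105 and 150.2 CPM at 14 cycles, 63.0 and 25.8 CPM at 18 cycles, 34.0 and 31.4 CPM in 1/2, 58.6 and 60.01 CPM in 1/4, and 77.9 and 72.3 CPM in 1/8. Nr5a2 was the most abundant in all groups but 1/8, where Cyp19a1 was, while Fshr was at 0 in 9 libraries and Foxl2 in 7. Inha and Amh split the pairs of whole oocytes, whereas Nr5a2, Cyp19a1 and Kitl differed far less within them. Inha stood at 34.1 and 0.326 CPM at 10 cycles, 3.64 and 31.9 CPM at 14 cycles, and 17.2 and 0.586 CPM at 18 cycles. Amh stood at 6.12 and 0.109 CPM, 0.324 and 4.85 CPM, and 6.63 and 0.586 CPM in the same order. Foxl2 stood at 3.65 CPM in replicate 1 at 18 cycles, above the 4 whole oocytes at fewer cycles (at most 1.29 CPM). The part of these cells in the results was not tested. A library holds the RNA of an oocyte and of any cells still attached, and a share depends on all other counts. From the share alone, fewer attached cells, less mitochondrial RNA per cell and more of the other counts cannot be told apart.

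**Figure D1:**
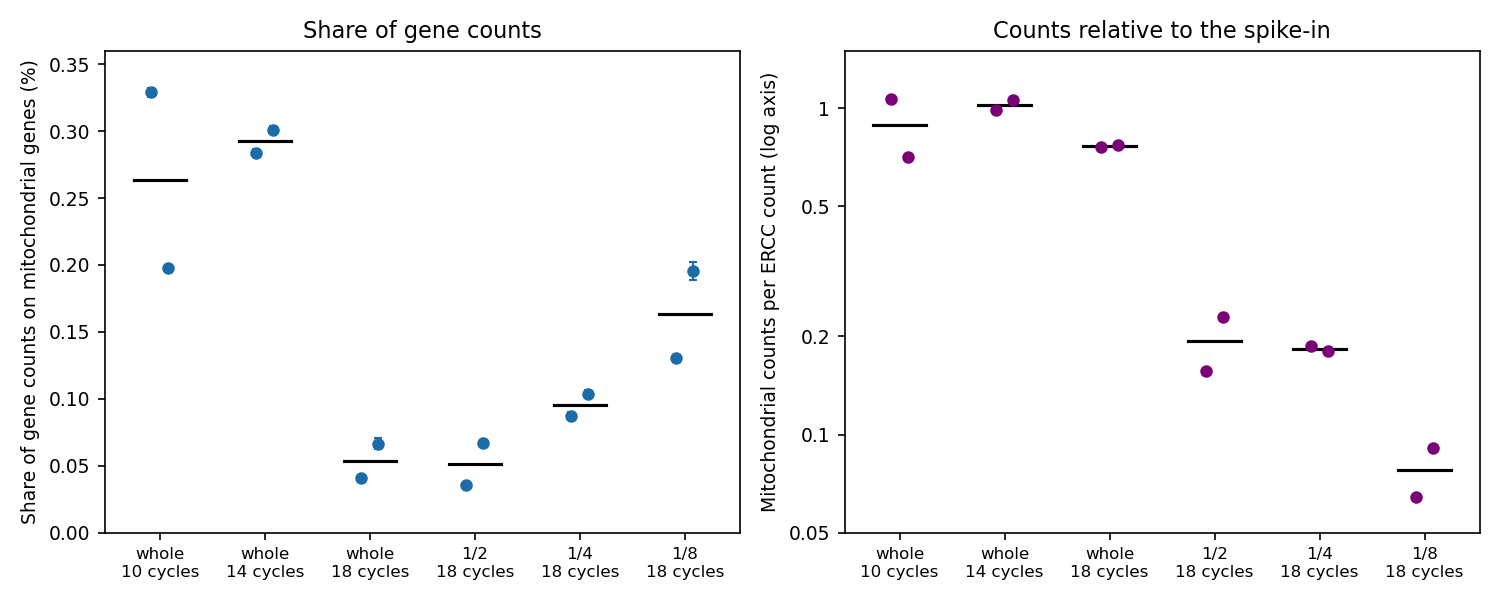
Left, share of the counts on genes that fell on the 37 mitochondrial genes in percent; right, mitochondrial counts per ERCC count on a log axis. Each point is 1 library (2 per group), horizontal lines are group means, and bars on the left are Wilson intervals at 95%, which cover counting error only. The share at 18 cycles (0.0407% and 0.0665%) lay below that at 10 and 14 cycles (0.197% to 0.329%), while mitochondrial counts per ERCC count overlapped between these groups.

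Relative to the spike-in the picture differed. Whole oocytes had 1.06 and 0.711 mitochondrial counts per ERCC count at 10 cycles, 0.985 and 1.06 after 14 cycles, and 0.762 and 0.769 after 18 cycles. The 1/2 fraction had 0.157 and 0.229, the 1/4 fraction 0.186 and 0.180, and the 1/8 fraction 0.0645 and 0.0908 mitochondrial counts per ERCC count. The whole oocytes at 18 cycles thus lay among those at fewer cycles, and every fraction lay below all whole oocytes. From 10 and 14 to 18 cycles the log2 difference of mitochondrial counts per ERCC count was -0.30 (exact permutation p = 0.4, n = 2 against 4), while all gene counts per ERCC count were 2.09 higher (log2, exact permutation p = 0.133, n = 2 against 4). Those gene counts stood at 323 and 360.0 per ERCC count at 10 cycles, 347 and 354 after 14 cycles, and 1873 and 1158 after 18 cycles. Against whole oocytes at 18 cycles, mitochondrial counts per ERCC count were at 24.8% in 1/2, 23.9% in 1/4 and 9.99% in 1/8 (log2 differences -2.01, -2.06 and -3.32, exact permutation p = 0.333 each, n = 2 against 2). Over all genes the same ratio was 26.4%, 13.1% and 3.25%, but against 10 and 14 cycles, as added once the data had been seen, it was 112%, 55.8% and 13.8%, while the mitochondrial ratio was 20.1%, 19.4% and 8.11%. The mitochondrial ratio thus lies above that of all genes in 1/4 and 1/8 only with the reference at 18 cycles. Over all genes the ratios lay below the nominal 1/2, 1/4 and 1/8 with that reference and above them with 10 and 14 cycles. Whole oocytes at 18 cycles held only 1611 and 1474 ERCC counts, against 25528 to 39046 in those at 10 and 14 cycles. Between 1/4 and 1/2 the mitochondrial libraries overlapped (log2 difference -0.05, exact permutation p = 1, n = 2 against 2), whereas 1/8 was 1.26 below 1/4 on average (log2 difference -1.26, exact permutation p = 0.333, n = 2 against 2). With 1 library of the 1/2 fraction left out (replicate 2), the difference between 1/4 and 1/2 turned to 0.22.

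Counts were spread very unevenly over the 37 genes. There were 23 with at least 1 count and 14 with none in any library, and 19 had at most 1 count in all. Both rRNAs and 7 mRNAs (mt-Nd1, mt-Nd2, mt-Nd4, mt-Nd5, mt-Nd6, mt-Cytb and mt-Co1) had at least 10 counts in each library, and these 9 genes held all mitochondrial counts except 169 on tRNAs and 2 on other mRNAs. The rRNAs held 48.3% and 56.4% of the mitochondrial counts at 10 cycles, 61.2% and 54.0% at 14 cycles, 60.1% and 57.9% at 18 cycles, 52.1% and 69.1% in 1/2, 68.0% and 63.1% in 1/4, and 54.3% and 60.2% in 1/8. Libraries of 1/4 lay above all others but 1 of 1/2, and those at 10 cycles lay below those at 18 cycles.

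Levels between genes were compared per kilobase of annotated gene. RNA was isolated with oligo(dT) beads, so these are levels of captured RNA. The part of the capture in differences between genes and classes was not tested. At 10 cycles (mean ± SD, n = 2) mt-Rnr2 had 610 ± 159 CPM per kb and mt-Rnr1 404 ± 89.2, followed by mt-Cytb at 288 ± 47.0, mt-Co1 at 263 ± 178 and mt-Nd1 at 223 ± 152. Below them came mt-Nd5 at 103 ± 53.3 CPM per kb, mt-Nd2 at 67.8 ± 9.87, mt-Nd4 at 37.1 ± 8.69 and mt-Nd6 at 34.4 ± 0.91. From mt-Cytb to mt-Nd2, and for mt-Nd4 with mt-Nd6, neighbours in this order differed by less than the larger of their SDs. At 18 cycles mt-Rnr2 (125 ± 42.5 CPM per kb) and mt-Rnr1 (122 ± 33.6) were level, ahead of mt-Cytb (45.8 ± 20.05), mt-Co1 (42.7 ± 5.53) and mt-Nd1 (36.6 ± 13.1). In the 1/8 fraction mt-Rnr2 (376 ± 109.9 CPM per kb) and mt-Rnr1 (365 ± 163) were again ahead of mt-Cytb (179.6 ± 10.4). There mt-Nd1 (135 ± 49.8) and mt-Co1 (115 ± 21.3) followed and differed by less than the larger of their SDs. Only the bases outside near-identical annotated nuclear copies were also taken as length, a setting chosen after seeing the data. On this length mt-Nd4 rose to 102 ± 23.8 CPM per kb at 10 cycles and mt-Co1 to 383 ± 259. In the 1/8 fraction mt-Co1 then stood at 167 ± 31.0 CPM per kb, ahead of mt-Nd1 on average.

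**Figure D2:**
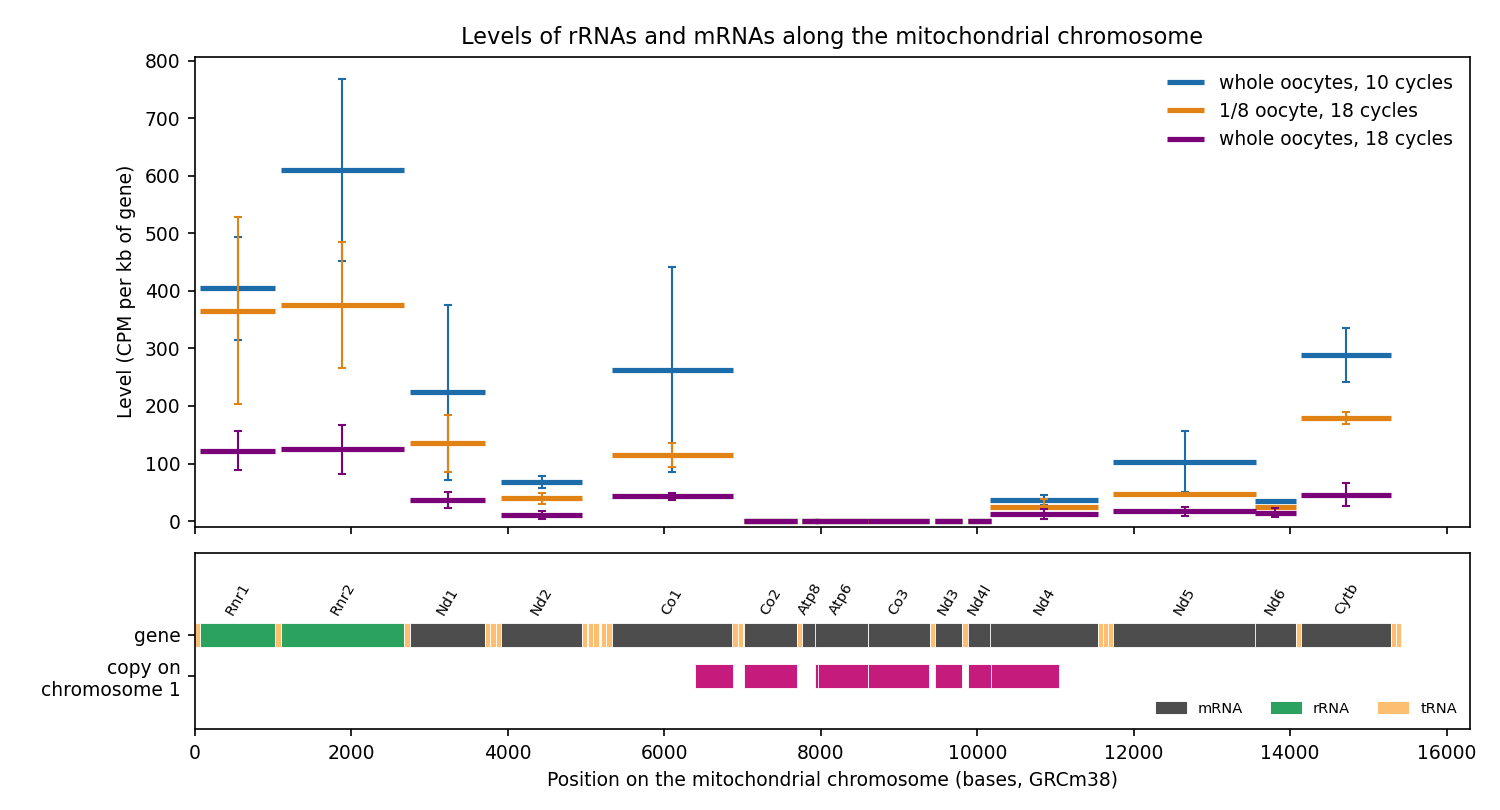
Top, level of each rRNA and mRNA in CPM per kb of gene against its position on the mitochondrial chromosome in bases; horizontal lines are group means and vertical bars ± SD (n = 2) for whole oocytes at 10 cycles, the 1/8 fraction and whole oocytes at 18 cycles. Bottom, the 37 genes by class, and the stretches with a copy of at least 99% identity on chromosome 1. From 7013 to 10173, under most of the copies, 9 genes held 2 counts in all.

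All genes were tested together, with size factors from the median ratio. The filter (5 counts in 2 libraries) kept 12 mitochondrial genes for the cycle numbers and 9 for the fractions, which were the rRNAs and mRNAs above. Between 14 and 10 cycles edgeR called 0 of 12 mitochondrial genes, where 0% of 17532 genes were called; 0 of the 12 had an unadjusted p under 0.05, and DESeq2 also called 0. From 10 to 18 cycles 7 of 12 fell (edgeR, threshold of 0.01 on the adjusted p) and none rose, where 23.1% of all genes were called. Between 14 and 18 cycles 7 of 12 fell, where 23.2% were called. The 7 were mt-Rnr1, mt-Rnr2, mt-Nd1, mt-Nd2, mt-Nd5, mt-Cytb and mt-Co1 both times, and the comparisons share the libraries at 18 cycles. For 18 against 10 cycles the median log2 fold change over the 9 rRNAs and mRNAs was -2.34, in a range from -2.51 to -1.04, against -0.29 over all genes tested. With ERCC size factors edgeR called 0 of 12 for 18 against 10 cycles (0 at an unadjusted p under 0.05), and mt-Rnr1, mt-Rnr2, mt-Nd4 and mt-Nd6 turned to log2 fold changes of 0.73, 0.16, 0.73 and 1.12. On that scale 47.6% of all genes rose and 0 fell, and their median moved from -0.29 to 1.96, so the falls hold only relative to other genes. For 18 against 14 cycles edgeR called 0 with ERCC size factors too (1 at an unadjusted p under 0.05), where 47.9% of all genes were called. The count for 18 against 10 cycles was 1 without replicate 1 at 10 cycles (11.3% of all genes called) and 4 without replicate 1 at 18 cycles (17.1%). For 18 against 14 cycles it was 3 without replicate 2 at 14 cycles (10.9%) and 4 without replicate 1 at 18 cycles (17.9%).

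With ERCC size factors, 8 of 9 mitochondrial genes fell in 1/2 against whole oocytes at 18 cycles (mt-Nd2 missed the threshold), where 52.0% of 14788 genes were called. In 1/4 all 9 tested fell, where 69.7% of genes were called, and in 1/8 all 9 tested fell, where 87.5% were. Their median log2 fold change was -2.17 in 1/2, -2.19 in 1/4 and -3.53 in 1/8, beside -2.00, -2.69 and -4.92 over all genes. Without replicate 1 or 2 of the 1/2 fraction the count there was 3 (41.8% and 13.2% of all genes called), and without replicate 1 or 2 of the 1/4 fraction it was 4 there (53.8% and 46.7%). Against all 6 whole oocytes, where 12 mitochondrial genes pass the filter because libraries at 10 and 14 cycles enter it, edgeR called 0 of 12 in 1/2 (9 at an unadjusted p under 0.05) and 0 of 12 in 1/4 (10 at an unadjusted p under 0.05). No gene of the 18041 tested was called there either, so these zeros are not particular to the mitochondrial genes. With median ratio size factors edgeR called 0 of 9 in 1/2 (1 at an unadjusted p under 0.05, DESeq2 0), where 0.122% of genes were called, and 0 of 9 in 1/4 (1 at an unadjusted p under 0.05, DESeq2 0), where 0.460% were. Set against whole oocytes at 10 cycles on this scale, 8 of 12 fell in 1/2, where 16.2% of genes were called, and 6 of 12 in 1/4, where 9.99% were. The 12 include the tRNAs mt-Tp, mt-Tq and mt-Tm, which pass only because of the libraries at 10 and 14 cycles, so these counts do not compare with those of 9. In 1/8, 5 of 9 rose on this scale (mt-Rnr1, mt-Rnr2, mt-Nd1, mt-Cytb and mt-Co1) and none fell, where 15.7% of genes were called, and the median log2 fold change of the 9 was 1.37 against 0.03 over all genes. That rise depends on the whole oocytes at 18 cycles: edgeR called 0 against all 6 whole oocytes (0 at an unadjusted p under 0.05) and 0 against those at 10 cycles (4 at an unadjusted p under 0.05), with each of the 9 genes then below 0 against 10 cycles. Of all 18041 genes 0 were called against either reference. It was 0 without replicate 1 at 18 cycles (7.52% of all genes called) and 1 without replicate 2 of the 1/8 fraction (8.92%).

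Fractions were also compared with each other, in a fit whose filter, size factors and spread include the whole oocytes at 18 cycles. Between 1/4 and 1/2 edgeR called 0 of 9 mitochondrial genes with median ratio size factors (4 at an unadjusted p under 0.05, DESeq2 0), where 0% of genes were called. Between 1/8 and 1/4 it called 1 of 9, where 4.96% were called: mt-Cytb was 1.33 ± 0.32 higher on the log2 scale (adjusted p = 0.00973, higher in 2 of 2 libraries). All 9 log2 fold changes for 1/8 against 1/4 were above 0 on this scale, from 0.35 to 1.38. With ERCC size factors the direction reversed and 3 of 9 fell, where 60.2% of all genes fell and 0 rose. Without any 1 of the 4 libraries compared the count with median ratio size factors was 0, where 0.702% to 3.16% of all genes were called.

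**Figure D3:**
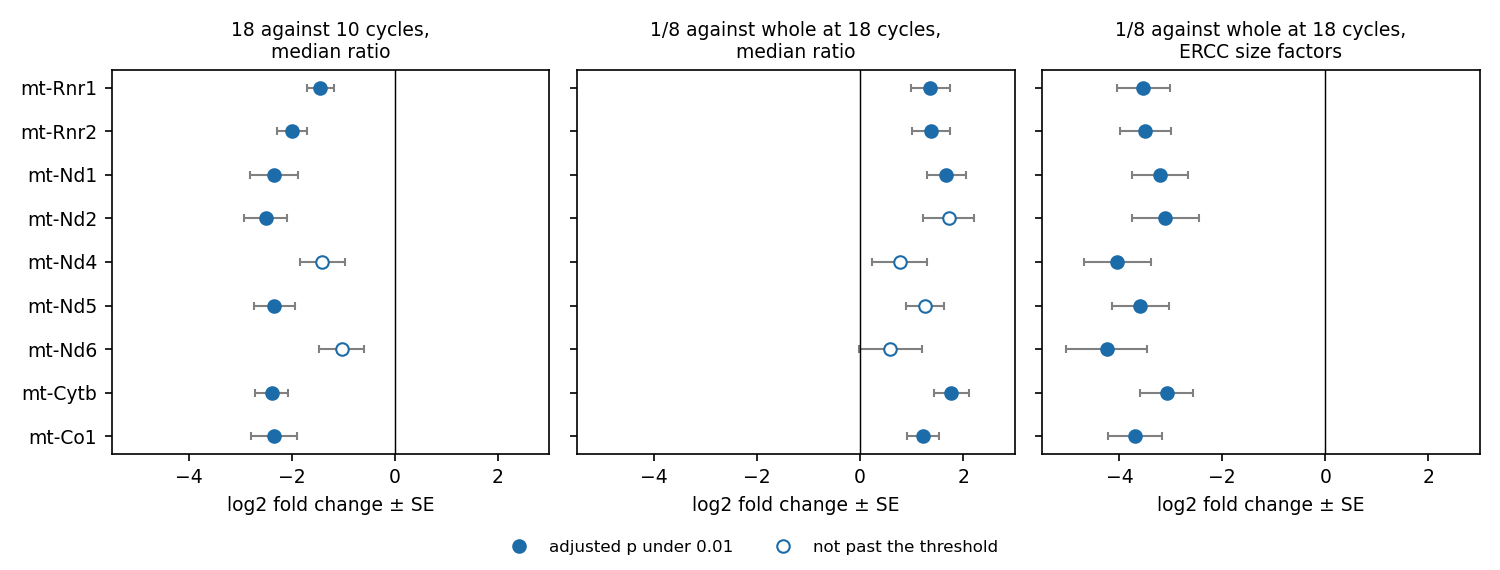
Log2 fold changes (edgeR, points) ± SE of the 9 rRNAs and mRNAs in 3 comparisons, with filled points where the adjusted p was under 0.01. With median ratio size factors all 9 lie below 0 for 18 against 10 cycles (with ERCC size factors mt-Rnr1, mt-Rnr2, mt-Nd4 and mt-Nd6 turn above 0) and above 0 for 1/8 against whole oocytes at 18 cycles (below 0 against 10 cycles), and with ERCC size factors all 9 lie below 0 for 1/8.

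Per kb of gene the rRNAs had the highest levels in CPM among the members at 10 and 18 cycles and in 1/8. The small subunit rRNA, mt-Rnr1 (ENSMUSG00000064337, bases 70 to 1024), stood at 446 and 326 CPM at 10 cycles, 381 and 402.5 CPM at 14 cycles, 94.1 and 139 CPM at 18 cycles, 76.0 and 176.7 CPM in 1/2, 139 and 212 CPM in 1/4, and 239 and 459 CPM in 1/8. The large subunit rRNA, mt-Rnr2 (ENSMUSG00000064339, bases 1094 to 2675), stood at 1142 and 787 CPM at 10 cycles, 1358 and 1219.8 CPM at 14 cycles, 150.5 and 246 CPM at 18 cycles, 110.3 and 284 CPM in 1/2, 452 and 442 CPM in 1/4, and 471 and 717 CPM in 1/8. Both were high at 10 and 14 cycles and low at 18 cycles without overlap, and both were higher in the 1/8 fraction than in the whole oocytes at 18 cycles. From 10 to 18 cycles the log2 fold change of mt-Rnr1 was -1.45 ± 0.26 (SE; edgeR adjusted p = 0.00183) and that of mt-Rnr2 -2.00 ± 0.30 (adjusted p = 0.000603). In 1/8 against whole oocytes at 18 cycles (median ratio) mt-Rnr1 rose by 1.37 ± 0.38 on the log2 scale (adjusted p = 0.00989) and mt-Rnr2 by 1.37 ± 0.37 (adjusted p = 0.00797), but not against 10 cycles, where the values were -0.09 and -0.64. The counts of mt-Rnr2 per count of mt-Rnr1 were 2.56 and 2.42 at 10 cycles, 3.57 and 3.03 at 14 cycles, 1.60 and 1.76 at 18 cycles, 1.45 and 1.61 in 1/2, 3.25 and 2.08 in 1/4, and 1.97 and 1.56 in 1/8. This ratio between the rRNAs was lower at 18 than at 10 and 14 cycles without overlap (log2 difference -0.77, exact permutation p = 0.133, n = 2 against 4), and it was higher in 1/4 than in 1/2 (log2 difference 0.77, exact permutation p = 0.333, n = 2 against 2).

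Complex I takes electrons from NADH, and 7 of its subunits are mitochondrially encoded. mt-Nd1 (ENSMUSG00000064341, bases 2751 to 3707) stood at 317 and 111 CPM at 10 cycles, 189 and 257 CPM at 14 cycles, 26.2 and 44.0 CPM at 18 cycles, 23.6 and 21.7 CPM in 1/2, 49.2 and 73.3 CPM in 1/4, and 95.4 and 163 CPM in 1/8. mt-Nd2 (ENSMUSG00000064345, bases 3914 to 4951) stood at 77.6 and 63.1 CPM at 10 cycles, 52.1 and 56.4 CPM at 14 cycles, 5.63 and 16.4 CPM at 18 cycles, 11.4 and 12.5 CPM in 1/2, 14.9 and 19.4 CPM in 1/4, and 33.7 and 48.2 CPM in 1/8. Both genes were low at 18 cycles and in 1/2, and the 1/8 libraries lay above the whole oocytes at 18 cycles without overlap. For 18 against 10 cycles mt-Nd1 changed by -2.35 ± 0.46 (log2, SE; edgeR adjusted p = 0.00273) and mt-Nd2 by -2.51 ± 0.41 (adjusted p = 0.00103). In 1/8 against whole oocytes at 18 cycles (median ratio) mt-Nd1 rose by 1.67 ± 0.37 (log2, adjusted p = 0.00213), while mt-Nd2, at 1.72 ± 0.49, missed the threshold (adjusted p = 0.0122).

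mt-Nd5 (ENSMUSG00000064367, bases 11742 to 13565) stood at 257 and 119.8 CPM at 10 cycles, 136 and 159 CPM at 14 cycles, 21.5 and 41.0 CPM at 18 cycles, 21.4 and 32.8 CPM in 1/2, 43.7 and 56.8 CPM in 1/4, and 83.5 and 88.1 CPM in 1/8. It fell from 10 to 18 cycles by 2.34 on the log2 scale (log2 fold change -2.34 ± 0.40, SE; edgeR adjusted p = 0.00127), and its rise in 1/8 missed the threshold (1.26 ± 0.37, adjusted p = 0.0151). mt-Nd4 (ENSMUSG00000064363, bases 10167 to 11544) stood at 59.6 and 42.7 CPM at 10 cycles, 43.0 and 48.5 CPM at 14 cycles, 8.29 and 25.2 CPM at 18 cycles, 9.44 and 15.3 CPM in 1/2, 11.7 and 12.1 CPM in 1/4, and 18.9 and 47.6 CPM in 1/8. mt-Nd6 (ENSMUSG00000064368, bases 13552 to 14070), the only mRNA of the 13 that lies on the other strand, stood at 17.5 and 18.2 CPM at 10 cycles, 13.4 and 17.7 CPM at 14 cycles, 4.64 and 10.5 CPM at 18 cycles, 3.48 and 7.23 CPM in 1/2, 5.46 and 8.52 CPM in 1/4, and 12.8 and 12.9 CPM in 1/8. Both mt-Nd4 and mt-Nd6 were lower at 18 than at 10 and 14 cycles without overlap, yet neither passed the threshold from 10 to 18 cycles (log2 fold changes -1.41 ± 0.44, adjusted p = 0.0290, and -1.04 ± 0.44, adjusted p = 0.0953). Nor did they in 1/8 against whole oocytes (log2 fold changes 0.77 ± 0.54 and 0.59 ± 0.62), where the libraries of mt-Nd4 overlapped. The ends of mt-Nd5 and mt-Nd6 share the bases from 13552 to 13565 on opposite strands. A tag in the file names reads as counting without strand, which was not checked further, so their values are uncertain to that extent. The remaining subunits, mt-Nd3 (ENSMUSG00000064360) and mt-Nd4l (ENSMUSG00000065947), had 0 counts in the 12 libraries.

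mt-Cytb (ENSMUSG00000064370, bases 14145 to 15288), the cytochrome b of complex III, stood at 368 and 292 CPM at 10 cycles, 371 and 305 CPM at 14 cycles, 36.1 and 68.6 CPM at 18 cycles, 58.1 and 74.5 CPM in 1/2, 73.0 and 84.0 CPM in 1/4, and 197 and 214 CPM in 1/8. Its partners in a group lay close together except at 18 cycles, and its 1/8 libraries lay above all others amplified for 18 cycles. Between 10 and 18 cycles its log2 fold change was -2.40 ± 0.32 (SE; edgeR adjusted p = 0.000364), and in 1/8 against whole oocytes at 18 cycles (median ratio) it rose by 1.77 ± 0.34 (adjusted p = 0.000561).

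mt-Co1 (ENSMUSG00000064351, bases 5328 to 6872), the catalytic subunit of cytochrome c oxidase (complex IV), stood at 601 and 212 CPM at 10 cycles, 293 and 537 CPM at 14 cycles, 59.99 and 72.1 CPM at 18 cycles, 42.0 and 42.0 CPM in 1/2, 78.9 and 128 CPM in 1/4, and 154 and 201 CPM in 1/8. The pairs at 10 and at 14 cycles were far apart, and all 4 of these values lay above those of the libraries amplified for 18 cycles. The granulosa markers were mixed in these pairs. In the library with more mt-Co1, Inha, Amh, Foxl2, Inhba, Hsd17b1, Nr5a2 and Fst were higher in both pairs. Inha stood at 34.1 against 0.326 CPM at 10 cycles and 31.9 against 3.64 CPM at 14 cycles. Kitl was lower in both pairs (10.95 against 12.5 CPM at 10 cycles, 11.4 against 15.3 CPM at 14 cycles). Cyp19a1 was lower at 10 cycles (27.5 against 32.6 CPM) but higher at 14 cycles. Fshr was lower at 14 cycles (0.290 against 1.05 CPM) and had no counts at 10 cycles. At 18 cycles Inha was higher in replicate 1 (17.2 against 0.586 CPM), where mt-Co1 was lower (59.99 against 72.1 CPM). The part of attached cells in this spread was not tested. As a share of the mitochondrial counts, mt-Co1 held 18.3% and 10.7% at 10 cycles, 10.3% and 17.9% at 14 cycles, 14.7% and 10.8% at 18 cycles, 11.7% and 6.29% in 1/2, 9.08% and 12.3% in 1/4, and 11.8% and 10.3% in 1/8. Pairs of all groups overlapped in that share. Between 10 and 18 cycles the log2 fold change of mt-Co1 was -2.34 ± 0.45 (SE; edgeR adjusted p = 0.00244), and in 1/8 against whole oocytes at 18 cycles (median ratio) it was 1.22 ± 0.31 (adjusted p = 0.00598). The other subunits of complex IV, mt-Co2 (ENSMUSG00000064354) and mt-Co3 (ENSMUSG00000064358), each had 1 count, both in replicate 1 at 10 cycles. The ATP synthase subunits mt-Atp8 (ENSMUSG00000064356) and mt-Atp6 (ENSMUSG00000064357) had 0 counts. A count of 0 allows up to 3, which is 0.217 CPM in the deepest library and 1.76 CPM in the shallowest, but this bounds the counts assigned and not the level of a gene with an identical copy such as mt-Atp6.

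The 22 tRNAs, which carry amino acids to the mitochondrial ribosome, held 169 counts, and 12 of them had at least 1. Those with the highest mean CPM over the libraries were mt-Tp with 53 counts, mt-Tq with 33, mt-Tm with 30, mt-Tt with 11 and mt-Tl2 with 8. By counts mt-Tf (15) and mt-Tl1 (12) stood before mt-Tt and mt-Tl2. The mean of mt-Tt rests largely on 3 counts in replicate 2 at 18 cycles (1.76 CPM), a shallow library. Over all tRNAs the libraries had 28 and 25 counts at 10 cycles, 39 and 31 at 14 cycles, 0 and 3 at 18 cycles, 8 and 2 in 1/2, 4 and 3 in 1/4, and 23 and 3 in 1/8. No tRNA passed 16 counts in a library. mt-Tp, mt-Tq and mt-Tm passed the filter through the libraries at 10 and 14 cycles and had 0 counts in both whole oocytes at 18 cycles, so no fold change is given for them.

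The 6 mRNAs with at most 1 count lay in 1 stretch. From base 7013 to base 10173 of the mitochondrial chromosome, 9 genes in a row (mt-Co2, mt-Atp8, mt-Atp6, mt-Co3, mt-Nd3, mt-Nd4l and 3 tRNAs) held 2 counts in total. The nearest mRNAs on either side held more, with 23640 on mt-Co1 before them and 2850 on mt-Nd4 after them. Between mt-Co1 and mt-Co2 lie the tRNAs mt-Ts1 and mt-Td, which also had 0 counts. The same stretch lies on chromosome 1 of the nuclear genome (GRCm38, 24611535 to 24616197, minus strand), where GENCODE lists 7 unprocessed pseudogenes in the same order. The base of the mitochondrial chromosome and the matching base of chromosome 1 added up to 24622578 for 6 pairs of gene and pseudogene and to 24622577 for the other 2, so the copy is collinear. Aligned with blastn, mt-Co2 matched Gm28661 over 681 of its 684 bases, mt-Co3 matched Gm28437 over 783 of 784, mt-Atp6 matched Gm10925 over 678 of 681 and mt-Nd4l matched Gm10222 over 294 of 297, all at 100% identity. mt-Nd3 matched Gm28438 over 345 of 348 bases at 99.71%, and of mt-Atp8 only the last 43 of 204 bases, which overlap mt-Atp6, were covered by an annotated copy. The copy also reaches into the neighbours: Gm28439 equals 876 of the 1378 bases of mt-Nd4, and Gm29216 matches 483 of the 1545 bases of mt-Co1 at 99.79%. mt-Co1 also matched Gm13340, on chromosome 2, over all 1545 bases at 97.6%, and Gm13340 had 12 counts. Neither mt-Rnr1 nor mt-Nd1 had an annotated copy, and the closest for mt-Cytb (92.9%), mt-Nd2 (96.7%), mt-Nd5 (95.2%), mt-Nd6 (93.6%) and mt-Rnr2 (88.5%) were less alike. Levels of the genes with copies of at least 99% identity are uncertain, since a read from shared bases can be placed on either. Whether such reads were lost from the counts was not tested.

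Of the 7 pseudogenes only 1 held more than 1 count. Gm28661 and Gm10925 each had 1 count, and Gm28437, Gm10222, Gm28439 and Gm29216 had 0. Gm28438, the copy of mt-Nd3, had 16 and 14 counts at 10 cycles, 13 and 13 at 14 cycles, 0 and 1 at 18 cycles, 1 and 1 in 1/2, 0 and 4 in 1/4, and 5 and 0 in 1/8, 68 in all, while mt-Nd3 had 0 in all libraries; it was singled out after its values were seen. Per library total this was 1.38 and 1.52 CPM at 10 cycles, 1.05 and 0.942 CPM at 14 cycles and 0 and 0.586 CPM at 18 cycles, which rests on at most 1 count in each library at 18 cycles, and these were the shallower libraries. Across the aligned 345 bases mt-Nd3 and Gm28438 differ by T3C, where the base of mt-Nd3 stands first and positions are counted from 1 at its first base. Reads that do not cover this base are the same for both within the aligned stretch, and its part in the counts was not tested. The first bases of both are shown because they hold the only difference, with that base in capitals (GENCODE release 21 transcripts, GRCm38, 5′ to 3′).
mt-Nd3: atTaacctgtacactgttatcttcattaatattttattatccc
Gm28438: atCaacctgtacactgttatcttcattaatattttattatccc
mt-Co1 has 1062 of its 1545 bases outside Gm29216, its only annotated copy of at least 99% identity, against 3 of 348 for mt-Nd3, so their counts do not compare. Its aligned stretch differs from Gm29216 by A1066T, counted in the same way, and the bases from 1063 on are shown with that base in capitals because they hold the only difference.
mt-Co1: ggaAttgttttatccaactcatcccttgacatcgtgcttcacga
Gm29216: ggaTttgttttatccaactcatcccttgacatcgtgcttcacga
The first bases of mt-Co2 and its copy are shown, with no capitals, as an example of a gene with 1 count whose copy is identical.
mt-Co2: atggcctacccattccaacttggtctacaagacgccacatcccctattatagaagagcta
Gm28661: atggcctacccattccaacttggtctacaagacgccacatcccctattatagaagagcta

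The mitochondrial genes are rich in A and T: their median GC content was 35.6%, against 47.1% over the annotated genes in the files. Nuclear genes in the GC range of the 9 tested members (34.1% to 39.9%) were followed where both groups had counts. For 18 against 14 cycles 874 such genes had a median log2 fold change of -0.99 (all nuclear genes -0.10), and for 1/8 against whole oocytes at 18 cycles (median ratio) 762 such genes had a median of 0.87 (all nuclear genes 0.02). The mitochondrial medians, -2.10 and 1.37, lay on the same side and farther from 0 in these comparisons. This did not hold for 1/2 against whole oocytes at 18 cycles (median ratio), with a mitochondrial median of -0.25 against 0.26, or for 1/4 against 1/2, with 0.42 against -0.02. From the 10th to the 90th percentile, these nuclear genes ran from -2.75 to 0.73 for 18 against 14 cycles. For 1/8 against whole oocytes at 18 cycles (median ratio) they ran from -0.73 to 2.48. The 9 members lay within these ranges, from -2.40 to -0.80 and from 0.59 to 1.77. The part of GC content in the results was not tested.

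Nuclear genes for the respiratory complexes were set beside the mitochondrial ones, without a test of the difference. Of 80 nuclear subunit genes of complexes I, III, IV and V, 78 were tested. From 10 to 18 cycles 30 rose and 9 fell with median ratio size factors, where 23.1% of all genes were called, and 57 rose and 0 fell with ERCC size factors, where 47.6% were. Their median log2 fold change was 0.76 with median ratio size factors, against -0.29 over all genes. Without replicate 2 at 10 cycles 23 were called, and 9.39% of all genes. In 1/8 against whole oocytes at 18 cycles (median ratio) 9 rose and 21 fell, where 15.7% of all genes were called, with a median of -0.18 against 0.03 over all genes. On the ERCC scale and against whole oocytes at 18 cycles 38 of 78 in 1/2, 64 in 1/4 and 75 in 1/8 were lower and 0 were higher, but against those at 10 cycles 34 were higher and 1 lower in 1/2 and 3 lower in 1/4 (mitochondrial genes 6 and 8 of 12 lower, 0 higher). With ERCC size factors and the reference of 18 cycles, the 38 in 1/2 became 5 without replicate 2 of 1/2 (13.2% of all genes called) and 13 without replicate 1 at 18 cycles (21.1%). At the reference of 18 cycles 52.0%, 69.7% and 87.5% of all genes were called, and at that of 10 cycles 8.67% and 8.62% in 1/2 and 1/4. Against all 6 whole oocytes 0 subunits and 0 of all genes were called in 1/2 and in 1/4. In 1/8 with ERCC size factors, 19 of 78 were lower against all 6 whole oocytes, where 47.2% of all genes were called. Against 10 cycles 75 of 78 were lower in 1/8, where 74.3% of all genes were called. On the median ratio scale 19 were called without replicate 1 or 2 of the 1/8 fraction (11.97% and 8.92% of all genes called), and edgeR called 0 against all 6 whole oocytes (11 at an unadjusted p under 0.05) and 0 against those at 10 cycles (24 at an unadjusted p under 0.05), with 0 called over all genes. Counts on the mitochondrial genes of complex I, as a percent of those on its 37 nuclear genes, were 21.1% ± 11.9 (SD, n = 2) at 10 cycles, 19.1% ± 0.91 at 14 cycles, 2.36% ± 1.46 at 18 cycles, 1.64% ± 0.72 in 1/2, 4.16% ± 0.67 in 1/4 and 8.69% ± 1.55 in 1/8. For complex III, with mt-Cytb against 9 nuclear genes, the percent was 49.5% ± 9.89 at 10 cycles, 48.4% ± 10.0 at 14 cycles, 7.30% ± 5.07 at 18 cycles, 5.48% ± 2.39 in 1/2, 7.91% ± 0.64 in 1/4 and 22.4% ± 0.79 in 1/8. For complex IV, with 16 nuclear genes, it was 28.3% ± 20.99 at 10 cycles, 28.5% ± 9.07 at 14 cycles, 1.95% ± 0.38 at 18 cycles, 1.24% ± 0.31 in 1/2, 4.58% ± 1.48 in 1/4 and 8.20% ± 0.04 in 1/8. In all 3 complexes the mean percent was lowest in 1/2 and at 18 cycles and rose from 1/2 over 1/4 to 1/8. For complex III, however, replicate 2 at 18 cycles (10.9%) lay above both libraries of 1/4 (7.46% and 8.37%). For ATP synthase, whose mitochondrial genes had no counts, the percent was 0% in every library. Nearly all bases of mt-Atp6, mt-Co2, mt-Co3, mt-Nd3 and mt-Nd4l lie in nuclear copies of at least 99% identity. The percents of ATP synthase and of complexes I and IV are therefore uncertain and do not compare with that of complex III.

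Nuclear genes that copy, transcribe, process and degrade mitochondrial DNA and RNA made a list of 53, of which 52 were found. Between 14 and 18 cycles 6 of 52 rose and 8 fell (26.9%), where 23.2% of all genes were called. For 18 against 10 cycles 9 of 52 rose and 12 fell (40.4%), where 23.1% of all genes were called. With ERCC size factors 30 rose and 0 fell in the latter comparison (57.7%), where 47.6% of all genes were called. Their median log2 fold change over the 50 with counts in both groups was -0.08 with median ratio size factors (all genes -0.12). The largest falls were those of Fastkd5, which acts in mRNA processing (-2.20 ± 0.32, SE; edgeR adjusted p = 0.000547), Nsun4, a methyltransferase of the small subunit rRNA (-1.98 ± 0.21, adjusted p = 0.000123), and Fastkd1, an RNA-binding protein (-1.72 ± 0.28, adjusted p = 0.000995). The largest rises were those of Mrpl12, a ribosomal protein also found with the mitochondrial RNA polymerase (2.51 ± 0.20, adjusted p = 5.0e-05), Fastk, which binds mitochondrial RNA (2.25 ± 0.28, adjusted p = 0.000234), and Hsd17b10, a part of the RNase that frees tRNAs (1.53 ± 0.36, adjusted p = 0.00717). With ERCC size factors Fastkd5, Nsun4 and Fastkd1 turned to 0.10, 0.23 and 0.46. The number called was 8 or 7 without replicate 1 or 2 at 10 cycles (11.3% and 9.39% of all genes called), and 13 without replicate 1 at 18 cycles (17.1%).

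In 1/8 against whole oocytes at 18 cycles (median ratio) 7 of 48 genes of this list rose and 2 fell (18.8%), where 15.7% of all genes were called. On the ERCC scale 0 rose and 46 fell (95.8%), where 87.5% of all genes were called. Against all 6 whole oocytes 29 of 52 fell on that scale (55.8%), where 47.2% of all genes were called. It was 45 of 52 (86.5%) against whole oocytes at 10 cycles, where 74.3% of all genes were called. On the median ratio scale the list had a median log2 fold change of -0.12 over the 47 with counts in both groups (all genes 0.02). Fastkd5 (2.18 ± 0.45, SE; edgeR adjusted p = 0.00107), Nsun4 (2.05 ± 0.29, adjusted p = 4.7e-05) and Slirp, which protects mitochondrial mRNAs with its partner Lrpprc (1.79 ± 0.41, adjusted p = 0.00269), had the largest rises. The genes that fell were Mrpl12 (-1.89 ± 0.29, adjusted p = 9.1e-05) and Grsf1, an RNA-binding protein of mitochondrial RNA granules (-1.77 ± 0.39, adjusted p = 0.00178). Against whole oocytes at 10 cycles 0 genes of the list were called with edgeR (8 at an unadjusted p under 0.05), as were 0 of all genes, and Mrpl12 and Fastkd5 had the opposite sign (0.60 and -0.04). Without replicate 1 at 18 cycles the number called was 5, where 7.52% of all genes were.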

How the data were processed

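The authors deposited raw HTSeq counts per gene and per ERCC molecule for 12 libraries of poly(A) RNA. Their processing notes name cutadapt 2.5, FastQC 0.11.8, STAR 2.7.2a, SAMtools 1.9 and HTSeq 0.9.1 with the mm10 genome. A tag in the file names reads as counting without strand. The paper names default HTSeq settings with a later version, under its analysis of downloaded sets, and the count files list 0 reads as not uniquely aligned in each library. Reads on no feature (6.90% to 10.8%) were left out. Gene classes, positions and sequences came from GENCODE mouse release 21, and copies were sought among its other transcripts with blastn 2.17.0. Copies outside annotated transcripts were not sought. Genes that reached 5 counts in 2 or more libraries of a fit were tested with edgeR 4.0.16 (quasi-likelihood) in R 4.3.3, Benjamini-Hochberg adjustment and a threshold of 0.01; DESeq2 1.42.0 was an alternative. The cycle fit held 6 whole oocytes and the fraction fit 8 libraries at 18 cycles. The fits were tested on simulated counts. Shares and ratios were compared on log2 values by exact two-sided permutation tests (scipy 1.17.1). Other alternatives were other filters, size factors (TMM, totals, ERCC molecules, nuclear genes), references, denominators, sets of members, a replicate block and leaving out each library. Members and lists were chosen with earlier results of these data known. Named were all mRNAs and rRNAs, the 5 tRNAs with the highest mean level, nuclear copies with at least 100 counts (none had that many) and, of the machinery list, the 3 largest rises and falls past the threshold.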

Additional observations from a re-analysis of the deposited data

How the results depend on the processing

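With 2 libraries per group, counts of calls depend on single oocytes. Other tests, filters and size factors kept the direction of the members called and came within 1.5 times of the count reported in 79 cases, and the exceptions follow, for each of which the cause was not tested. With ERCC size factors 0 members were called for 18 against 10 cycles, 0 for 18 against 14 cycles, and 3, all lower, for 1/8 against 1/4 (60.2% of all genes), where TMM gave 0. With all 6 whole oocytes as the reference 0 were called in 1/2 and 0 in 1/4 (ERCC) and 0 in 1/8 (median ratio), as were 0 of all genes; with whole oocytes at 10 cycles (median ratio) 8 fell in 1/2, 6 fell in 1/4 and 0 were called in 1/8 (16.2%, 9.99% and 0% of all genes called). When each library was left out in turn (a lone library is taken to vary like the other groups), members called ranged from 1 to 7 for 18 against 10 cycles, 3 to 7 for 18 against 14, 3 to 8, 4 to 9 and 9 to 9 in 1/2, 1/4 and 1/8 (ERCC), 0 to 5 in 1/8 (median ratio) and 0 to 0 for 1/8 against 1/4, and machinery genes from 7 to 19 (18 against 10 cycles) and 5 to 8 (1/8). Over all genes the percent called in these fits ranged from 9.39% to 22.9% for 18 against 10 cycles, 10.9% to 22.6% for 18 against 14, 13.2% to 60.4%, 46.7% to 71.8% and 75.8% to 85.8% in 1/2, 1/4 and 1/8 (ERCC), 7.52% to 11.97% in 1/8 (median ratio) and 0.702% to 3.16% for 1/8 against 1/4. Machinery genes called for 18 against 10 cycles were 13 of 49 (26.5%) with only the 2 groups compared in the fit, where 20.3% of all genes were called. In 1/8 with median ratio size factors they were 0 against all 6 whole oocytes and 0 against those at 10 cycles. With ERCC size factors they were 29 and 45 there, all lower (47.2% and 74.3% of all genes called). Reversed for 18 against 10 cycles with ERCC size factors were mt-Rnr1 0.73, mt-Rnr2 0.16, mt-Nd4 0.73, mt-Nd6 1.12, Fastkd5 0.10, Nsun4 0.23 and Fastkd1 0.46. Reversed in 1/8 against all 6 whole oocytes were mt-Rnr2 -0.41, mt-Nd1 -0.24, mt-Nd2 -0.13, mt-Co1 -0.68, mt-Nd4 -0.20, mt-Nd5 -0.47, mt-Nd6 -0.10 and mt-Cytb -0.18, and against those at 10 cycles mt-Rnr1 -0.0896, mt-Rnr2 -0.64, mt-Nd1 -0.67, mt-Nd2 -0.75, mt-Co1 -1.13, mt-Nd4 -0.63, mt-Nd5 -1.07, mt-Nd6 -0.42, mt-Cytb -0.63, Mrpl12 0.60 and Fastkd5 -0.0366, while mt-Nd6 ranged from -0.00401 to 1.32 without each library. The log2 difference of the share in 1/2 was 0.00157 without mt-Co1 and mt-Nd1 and ranged from -0.54 to 0.36 without each library; against 10 and 14 cycles that of 1/4 was -1.52 and that of 1/8 -0.77; per ERCC count, 1/4 against 1/2 ranged from -0.33 to 0.22. On mRNAs only, the mean share was 0.128% at 10, 0.124% at 14 and 0.0220% at 18 cycles, 0.0188% in 1/2, 0.0329% in 1/4 and 0.0685% in 1/8, and counts per ERCC count 0.429, 0.434, 0.313, 0.0726, 0.0628 and 0.0327. At 14 cycles the share was 0.260% with reads on no feature, 0.359% without the top 100 nuclear genes and 0.228% without mt-Co1 and mt-Nd1; in 1/4 it was 0.119% without the top 100 and 0.0788% without mt-Co1 and mt-Nd1. Per count of those ERCC molecules that had 10 or more counts in all 12 libraries, the means were 1.10 at 14 cycles, 0.802 at 18 cycles and 0.191 in 1/4; without mt-Co1 and mt-Nd1 they were 0.7996, 0.618 and 0.152 per ERCC count. Per kilobase, rRNAs held 57.0% at 18 cycles. Levels outside copies, shares and ERCC ratios against 10 and 14 cycles, and values without mt-Co1 and mt-Nd1 were chosen after seeing the data. The fractions come from 2 oocytes, but which library came from which is not given, and whole oocytes share only a replicate number. Deviations of libraries with the same number correlated at -0.15 to 0.14 (cycles) and -0.09 to 0.10 (fractions). With the replicate block, members called were 0, 8 and 7 (14 against 10, 18 against 10, 18 against 14). Over all genes 0%, 24.98% and 24.98% were called there. In 1/2, 1/4 and 1/8 with ERCC, members called were 9, 9 and 9, where 56.6%, 68.7% and 85.8% of all genes were called. With median ratio they were 0, 0 and 7 (0.494%, 0.852% and 17.9% of all genes). For 1/4 against 1/2 they were 0 (0.0947%) and for 1/8 against 1/4 they were 1 (6.59%). Machinery genes called were 21 for 18 against 10 cycles (24.98% of all genes) and 10 in 1/8 with median ratio (17.9%). At this depth the levels of genes with few counts were not settled, and the part of depth or of oligo(dT) capture in those counts was not tested.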
